A study of Mus musculus with 4 samples.

Results

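Collagens outside the cartilage fibril were 36 genes of 21900 protein-coding genes in the reference gene table, taken by name from a fixed list of collagens that leaves out types II, IX, X, XI and XXVII. Their 5-hydroxymethylcytosine (5hmC) peaks were those entries of the deposited peak lists whose gene symbol was the member's, or its older symbol in the reference table. The series profiled 5hmC, the oxidised form of 5-methylcytosine made by TET enzymes, in ATDC5, a mouse cell line that grows as chondroprogenitors and differentiates into chondrocytes. Chondrocytes had insulin, transferrin and selenite added to the basal medium and were sampled at day 19 and at day 20 (1 library each). Chondroprogenitors were sampled at day 0 (2 libraries) in the same basal medium with serum and ascorbic acid. DNA carrying 5hmC was captured chemically in all 4 libraries. The deposited data were 1 peak list for each stage, a chondrocyte list headed day 20 with 56695 readable peaks and a chondroprogenitor list headed day 0 with 1050 peaks. Each was made from merged libraries, so replicates cannot be compared and the counts are given without tests. Read depth is unknown. Every peak had to reach a 10-fold enrichment, and the labels and headers do not say over what. All values come from a single cell line, and the files hold no expression values with which to check the state of the cells. Intervals are Wilson 95% intervals, which cover counting error only, and genes and peaks are not replicates of a condition.

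Collagens are proteins of 3 chains wound into a triple helix, and they are grouped by what they assemble into. Fibrillar collagens form the banded fibrils of bone, skin and tendon, type IV collagen forms the sheet of basement membranes, and type VI collagen forms beaded microfibrils that in cartilage surround each chondrocyte. Fibril-associated collagens with interrupted helices (FACITs) sit on the surface of fibrils, transmembrane collagens span the cell membrane, and multiplexins are carried in basement membrane zones. In differentiated cells 5hmC is known to lie largely within the bodies of genes.

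In the chondrocyte list, 33 of the 36 collagens had at least 1 peak assigned to them (91.7%, 78.2 to 97.1%), against 9619 of all protein-coding genes (43.9%). In the chondroprogenitor list 1 collagen had a peak, Col5a3, against 397 of all protein-coding genes (1.81%). The chondrocyte peaks of the collagens numbered 223, with a median of 5 per gene and a range of 0 to 14, while the median over all protein-coding genes was 0, and 2 among those with a peak. Peaks were concentrated in some members. The 10 collagens with 10 or more peaks held 132 of the 223, and 3.05% of all protein-coding genes had as many. At the top, Col4a2, Col12a1 and Col23a1 had 14 peaks each, and Col4a1, Col5a1, Col14a1, Col24a1, Col25a1 and Col26a1 had 13 each. At the other end Col3a1, Col4a5 and Col20a1 had 0 peaks in either list, and 5 collagens had 1 chondrocyte peak. The peaks of Col26a1 carry its older symbol Emid2 in the deposited list. By current symbols alone 32 of the 36 collagens had a chondrocyte peak, against 39.7% of all protein-coding genes. Counted instead by overlap with the gene body, whatever the symbol, 33 of the 36 had one, against 40.5%, and with 5 kb added on both sides 33 had one, against 50.7%. With peaks of at least 500 bases 30 of the 36 had one, against 34.5%.

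**Figure D1:**
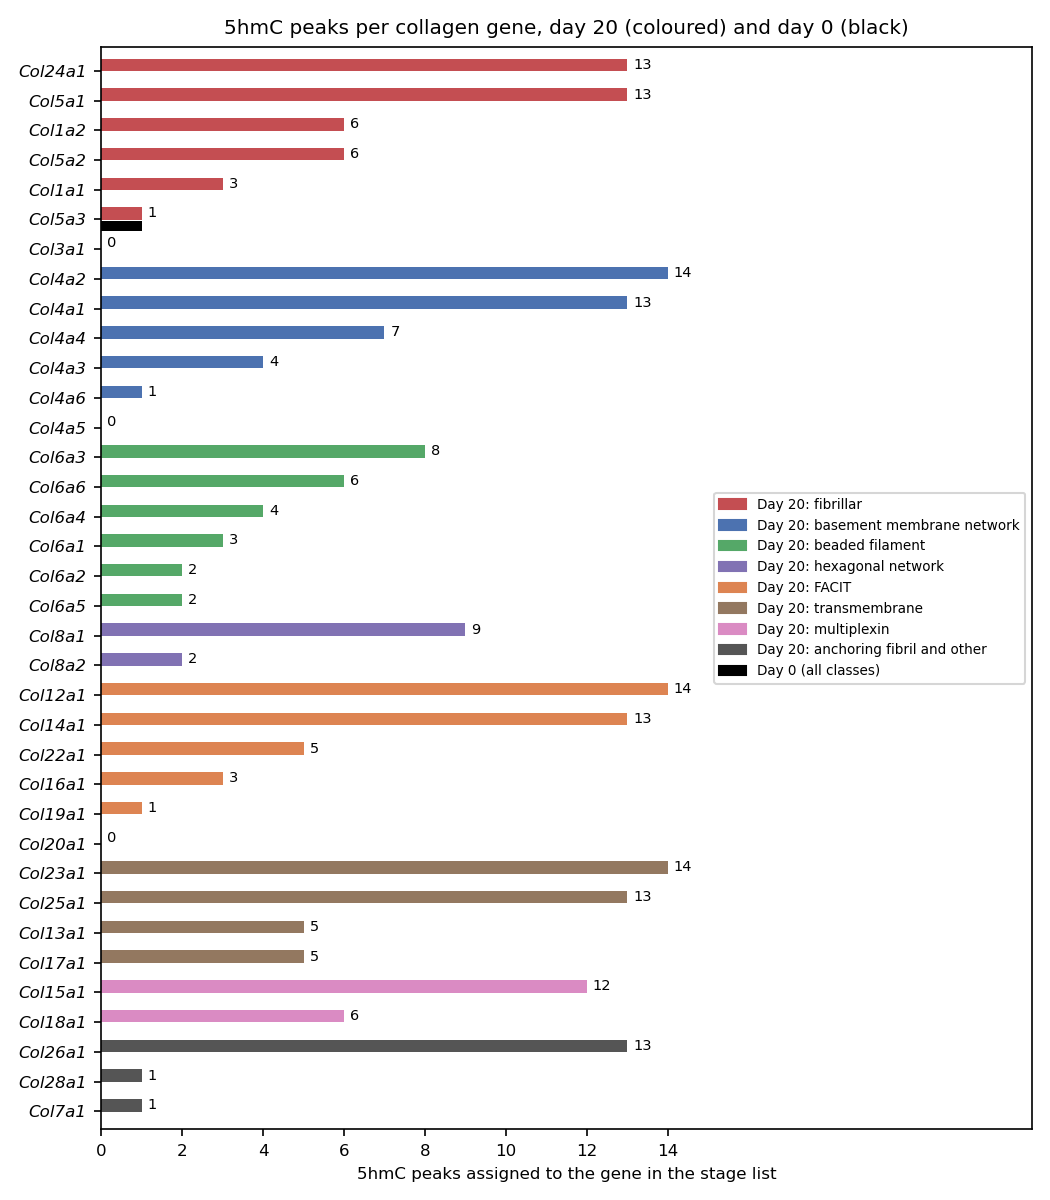
Number of 5hmC peaks assigned to each of the 36 collagen genes in the day 20 list (coloured bars, by structural class) and in the day 0 list (black bars). Day 20 bars run from 0 to 14, and the only black bar is that of Col5a3, with 1 peak.

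Gene length differs greatly between these genes and bears on the count. The median collagen here was 126 kb long and the median protein-coding gene 17.1 kb. Among genes under 50 kb, 8 of 10 collagens had a chondrocyte peak, against 34.6% of protein-coding genes in that band. Between 50 and 150 kb, 16 of 16 collagens had one, against 74.9%, and over 150 kb 9 of 10 had one, against 78.4%. Lengths were not matched within a band, and the collagens under 50 kb ran from 16.8 kb to 45.7 kb. Peak counts were also higher in the collagens of each band, by less among the longest genes. The median number of peaks per gene was 2 in collagens under 50 kb, against 0 in protein-coding genes of that band, 6.5 against 2 between 50 and 150 kb, and 9 against 5 over 150 kb. Collagens under 50 kb held 7.19 peaks per 100 kb of gene in all, against 3.95 over all protein-coding genes of that band. Collagens of 50 to 150 kb held 6.67 peaks per 100 kb of gene in all, against 3.60 over all protein-coding genes of that band, and collagens over 150 kb held 2.70 against 2.34. In the middle band 6 of 16 collagens had 9 or more peaks, against 7.15% of protein-coding genes. In the shortest band 4 of 10 collagens (Col1a1, Col1a2, Col6a1 and Col17a1) had 3 or more, against 5.73%. None of the 10 longest collagens had over 20 peaks, the 90th percentile of that band.

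**Figure D2:**
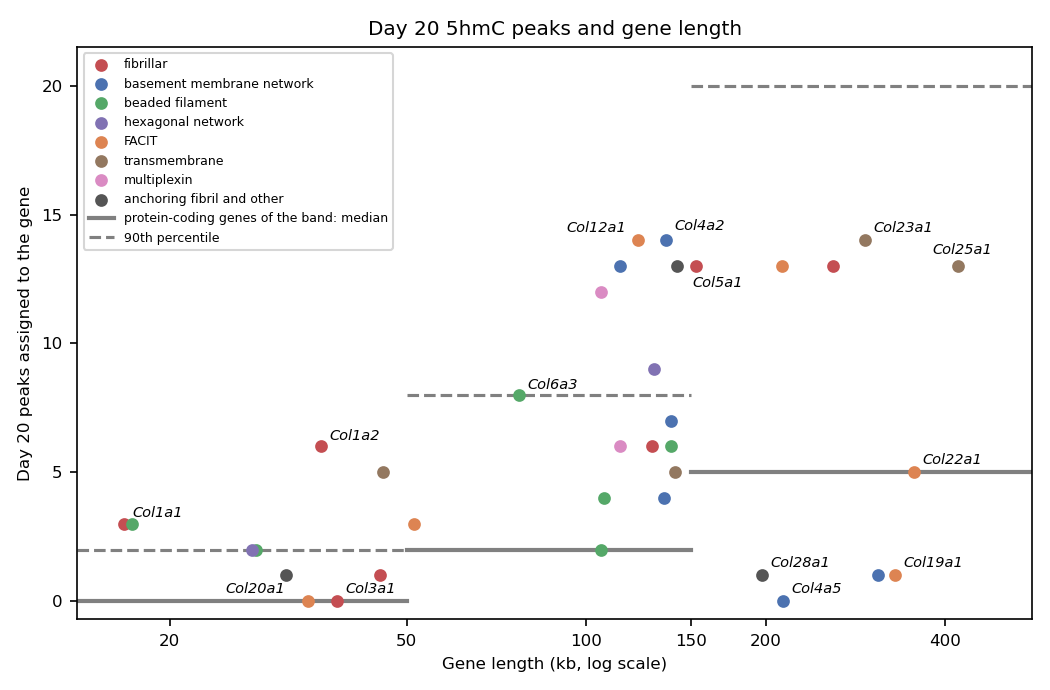
Day 20 peaks assigned to each collagen (points, coloured by structural class) against gene length in kb on a log axis. Grey lines give the median (0, 2 and 5 peaks) and dashed lines the 90th percentile (2, 8 and 20 peaks) of all protein-coding genes under 50 kb, of 50 to 150 kb and over 150 kb, and Col12a1 and Col4a2, with 14 peaks each, lie above the dashed line of their band.

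In every structural class the share of genes with a chondrocyte peak was at least 83.3%. It was 6 of 7 fibrillar collagens (85.7%, 48.7 to 97.4%), 5 of 6 basement membrane chains (83.3%, 43.6 to 97.0%) and 5 of 6 FACITs (83.3%, 43.6 to 97.0%). All 6 beaded filament chains, all 4 transmembrane collagens, both hexagonal network chains, both multiplexins and all 3 genes of the anchoring fibril and other class had at least 1. The 8 intervals overlap, but with 2 to 7 genes in a class they are too wide to show whether the shares are alike. Peak number per gene differed between classes, and its order depended on gene length. Median peaks per gene were 9 in transmembrane collagens and 9 in multiplexins, 6 in fibrillar collagens, 5.5 in the basement membrane and hexagonal network classes, 4 in FACITs, 3.5 in beaded filament chains and 1 in the remaining class. Per 100 kb of gene, with peaks outside the gene counted in, multiplexins held 8.19 peaks, the hexagonal network 6.96, fibrillar collagens 6.2, beaded filament chains 5.27, transmembrane collagens 4.11, the remaining class 4.06, the basement membrane class 3.72 and FACITs 3.25. The transmembrane genes had a median length of 218 kb and the fibrillar genes one of 45.1 kb. The basement membrane value covers the X-linked pair Col4a5 and Col4a6, with 1 peak over 524 kb. The pairs of that class on chromosomes 8 and 1 held 10.8 and 4.02 peaks per 100 kb.

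Among the fibrillar collagens, both genes of type I collagen, the main protein of bone and tendon fibrils, had day 20 peaks in and around them, and the gene of type III collagen had none. Col1a1, on chromosome 11 (94936224 to 94953042, GRCm38, 16.8 kb), had 3 day 20 peaks and 0 day 0 peaks, or 17.8 day 20 peaks per 100 kb. They spanned 558, 892 and 2004 bp, the first lying 1847 bp outside the gene at its lower-coordinate end and the other 2 inside it. A further day 20 peak of 2069 bp with no symbol began just beyond its higher-coordinate end. Col1a2, the partner chain on chromosome 6, had 6 day 20 peaks and 0 day 0 peaks in 35.9 kb, or 16.7 per 100 kb. Of these, 3 lay inside the gene, 2 lay upstream with midpoints 1024 and 3146 bp from its annotated start, and 1 lay 984 bp past its end. Counting only peaks that overlap the gene body gives 2 for Col1a1, or 11.9 per 100 kb, and 3 for Col1a2, or 8.35 per 100 kb. Col3a1, whose product assembles into fibrils with type I collagen in skin and vessels, had 0 peaks in its 38.2 kb on chromosome 1, and the nearest day 20 peak lay 116290 bases away.

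Type V collagen, which starts fibril assembly and limits fibril diameter, showed wide differences between its 3 chains. Col5a1 had 13 day 20 peaks and 0 day 0 peaks, 8.49 per 100 kb, and 11 lay inside its 153 kb. They were wide, from 567 to 2212 bp with a median of 1224 bp. Col5a2 had 6 day 20 peaks and 0 day 0 peaks in 129 kb, all of them between 71.2% and 94.7% of the gene's length counted from its lower-coordinate end. They were narrow, from 235 to 469 bp with a median of 316 bp, so that no peak of Col5a2 was as wide as the narrowest of Col5a1. Col5a2 lies 24624 bases from Col3a1. Col5a3 had 1 day 20 peak of 1336 bp and 1 day 0 peak of 122 bp. The day 0 peak (20812575 to 20812696 on chromosome 9) lay wholly within the day 20 peak (20811761 to 20813096), 2432 bp downstream of the annotated start. Col24a1, a minor fibrillar collagen, had 13 day 20 peaks and 0 day 0 peaks spread over 260 kb, the first with its midpoint 953 bp from the start, with a median gap of 14.2 kb between neighbours.

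The 6 type IV chains lie in 3 head-to-head pairs, and the pairs differed more than the chains within them. The ubiquitous chains Col4a1 and Col4a2, which overlap by 85 bases on chromosome 8, had 13 and 14 day 20 peaks and 0 day 0 peaks, or 27 peaks over 251 kb (10.8 per 100 kb). Col4a3 and Col4a4 on chromosome 1, chains best known from the kidney glomerulus, had 4 and 7 day 20 peaks, or 11 over 274 kb (4.02 per 100 kb). Col4a5 and Col4a6 on the X chromosome, which lie 1274 bases apart, had 0 and 1 over 524 kb (0.191 per 100 kb). The peak of Col4a6 spanned 749 bp inside the gene, 238244 bp from its start. The X chromosome was sparse as a whole. Of its 966 protein-coding genes 16.8% had a day 20 peak, against 45.8% on the autosomes, and among genes over 150 kb 44.8% on the X chromosome did, against 80.1%. Peaks per 100 kb of gene were 0.669 over all protein-coding genes of the X chromosome and 3.19 over those of the autosomes. The part of the chromosome in the low count of Col4a5 and Col4a6 was not tested. Within the densest pair, the nearest peak with the symbol of Col4a1 had its midpoint 21408 bp from the start of that gene. The nearest with the symbol of Col4a2 had its midpoint 956 bp from the start of Col4a2. That same peak lay 358 bases upstream of the start of Col4a1, so the contrast rests on the symbol it carries.

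**Figure D3:**
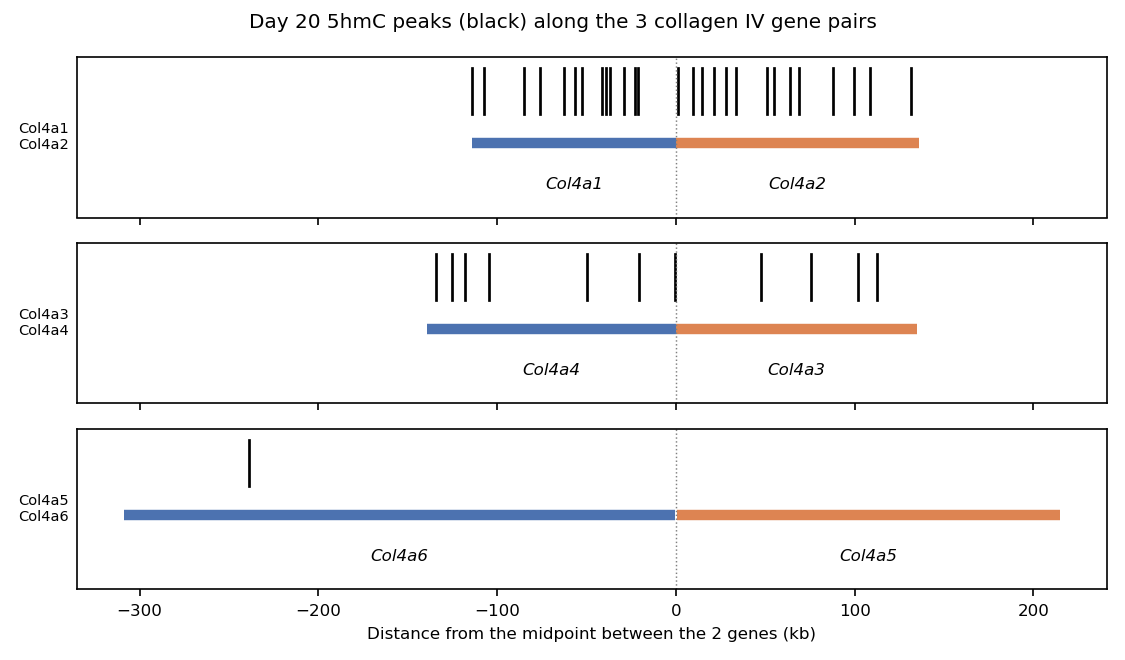
Day 20 peaks (black ticks) along the 3 pairs of type IV collagen genes, with distance in kb from the midpoint between the 2 genes of each pair and the gene bodies as coloured bars. The pairs held 27, 11 and 1 peaks from top to bottom.

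Every chain of type VI collagen had a day 20 peak and none had a day 0 peak. Col6a3, which encodes the longest of the common chains, had 8 day 20 peaks in 77.1 kb (10.4 per 100 kb), 7 of them inside the gene and the widest of 1713 bp. Col6a1, with 3 peaks in 17.3 kb, reached 17.4 per 100 kb, but its widest peak, of 2024 bp, lay 5799 bp upstream of its start, and the 2 over the gene body make 11.6 per 100 kb. Col6a2 had 2 peaks, 1 inside and 1 that was 2737 bp upstream. The alternative chains Col6a4, Col6a5 and Col6a6, which stand side by side on chromosome 9, had 4, 2 and 6 day 20 peaks. Their genes are 107, 106 and 139 kb long, and 1 of the 2 peaks of Col6a5 lay upstream of it. Assigned peaks made 2.95 per 100 kb of the whole span of these genes. That span held 14 day 20 peaks in all, of which 2 were not assigned to these genes. The hexagonal network chains are known from the membrane beneath the corneal endothelium and from vessel walls. Col8a1 had 9 day 20 peaks, 8 of them inside its 130 kb. Col8a2, a gene of 27.5 kb, had 2, neither with its midpoint inside the gene. Both had 0 day 0 peaks. A day 0 peak without a symbol stood next to Col6a3. It spanned 159 bp, lay within 5 kb of the far end of Col6a3 and overlapped a day 20 peak of 422 bp.

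FACITs ranged from the top of the collagens to none. Col12a1, whose product binds to type I collagen fibrils in tendon and ligament, had 14 day 20 peaks and 0 day 0 peaks. Its length of 122 kb makes this 11.5 per 100 kb. Of the 14, 2 lay outside the gene at its lower-coordinate end, and the 12 over the gene body make 9.82 per 100 kb. Col14a1, a close relative that also binds fibrils, had 13, of which 12 lay inside its 213 kb. The lower-coordinate 55.2% of the gene held 10 of them, followed by a gap of 82697 bases. Col22a1, found at tissue junctions such as the muscle-tendon junction, had 5 in 355 kb. Col16a1 had 3 in 51.5 kb, all near its start, with midpoints 2307 bp upstream of it and 1414 and 7835 bp downstream. Col19a1, a rare collagen of basement membrane zones, had 1 day 20 peak in 330 kb, and Col20a1 had 0 in 34.2 kb with the nearest day 20 peak 13746 bases away. No FACIT had a day 0 peak.

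All 4 transmembrane collagens had several day 20 peaks and 0 day 0 peaks. Col23a1 had 14 in 294 kb, the nearest to its start with its midpoint 40496 bp downstream of it, so that the opening part of the gene was empty. Col25a1, a membrane collagen of neurons, had 13 in 420 kb (3.10 per 100 kb), of which 12 lay inside the gene. Col13a1, a collagen of the neuromuscular junction, had 5 in 141 kb. Col17a1, a part of the hemidesmosome of epithelial cells, had 5 for a gene of 45.7 kb, or 10.9 per 100 kb. The widest of these, of 1549 bp, lay 5856 bp upstream of its start, and the 4 over the gene body make 8.75 per 100 kb. Among the multiplexins, Col15a1 had 12 day 20 peaks in 106 kb (11.4 per 100 kb), from its start to its end. Col18a1, the source of endostatin, had 6, of which 5 lay inside its 114 kb. In the last class Col26a1 had 13 in 142 kb, 12 of them inside the gene, while Col28a1 had 1 in 197 kb and Col7a1, the collagen of the anchoring fibrils of skin, had 1 in 31.3 kb. The day 0 list held no peak for any of the 9 collagens just described. 

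Most collagen peaks lay inside the gene, as did those of other genes. The midpoint was inside for 202 of 223 peaks (90.6%, 86.0 to 93.8%), against 88.8% of the 32306 day 20 peaks assigned to any protein-coding gene and lying on its chromosome. No midpoint lay farther than 7990 bp outside. No collagen peak overlapped another protein-coding gene, while 23 of the 223 overlapped a noncoding RNA gene. Strand was given for 29 of the 36 collagens, with 165 peaks. Of these, 14 (8.48%) lay upstream and 2 (1.21%) downstream of the gene, against 8.69% and 2.45% over all protein-coding genes. These positions, the share inside and the farthest midpoint all depend on which peaks the list gives the gene's symbol. Day 20 peaks without a symbol lay within 5 kb downstream of Col5a3, Col6a3 and Col6a5 and are not counted here. The share within 5 kb of an annotated start was 18 of 165 (10.9%, 7.01 to 16.6%) in the collagens, against 20.9% (20.4 to 21.4%). Collagens are longer than most genes, and among genes of 50 to 150 kb the values were 8 of 89 (8.99%, 4.63 to 16.7%) against 15.2% (14.4 to 16.0%), with intervals that overlap. Along the gene the peaks were spread throughout. Of 149 inside peaks, 31 (20.8%) lay in the 20% of the gene nearest its start and 38 (25.5%) in the last 20%, against 21.8% and 19.1% over all protein-coding genes. By class, 7 of 33 fibrillar peaks with a known strand lay within 5 kb of a start, 4 of 25 beaded filament peaks, 2 of 35 basement membrane peaks, 2 of 18 multiplexin peaks, 1 of 37 transmembrane peaks and 0 of 11 hexagonal network peaks. Only 4 FACIT peaks had a known strand, and 2 of them, both of Col16a1, lay within 5 kb of a start. Neither of the 2 such peaks of the remaining class did. These class values are not matched for length, and median gene length was 45.1 kb in the fibrillar class and 218 kb in the transmembrane class. Of the fibrillar 7, 2 belonged to Col1a2, 3 to Col5a1 and 1 each to Col5a3 and Col24a1.

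**Figure D4:**
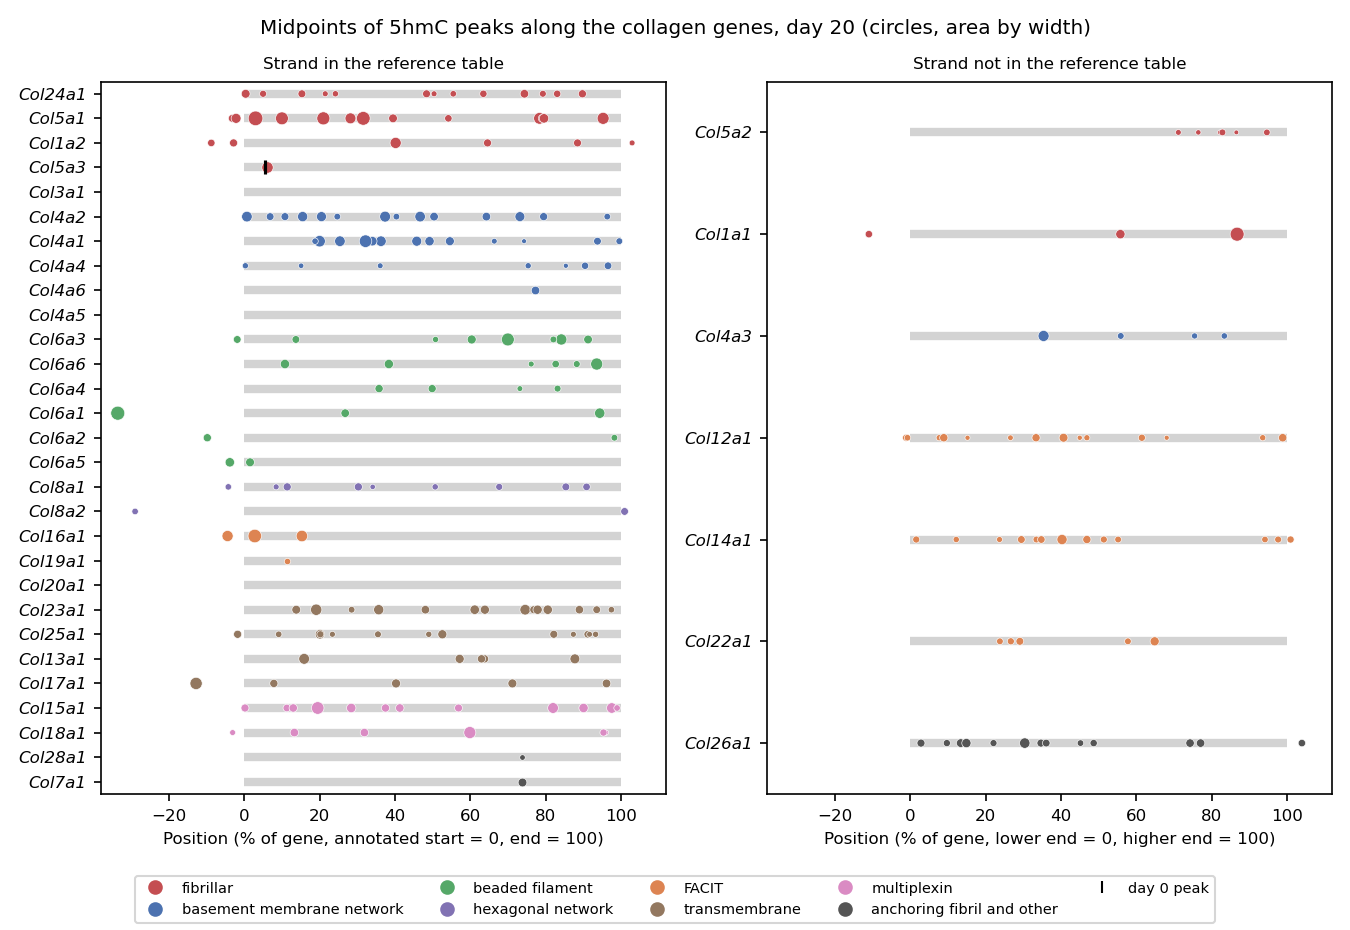
Midpoints of day 20 peaks (circles, area by peak width) and of the single day 0 peak (black tick, Col5a3) along each collagen gene, in percent of gene length, from start to end on the left where the reference table gives the strand and from the lower to the higher coordinate on the right where it does not. Peaks of Col5a2 all lie beyond 71.2%, those of Col16a1 near the start, and those of Col4a2, Col15a1 and Col24a1 throughout the gene.

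The window from 250 bases before to 50 bases after the annotated start was examined for 31 starts of 29 collagens. A day 20 peak overlapped 3 of the 31 windows (9.68%), against 3.74% of 21263 windows of protein-coding genes. These belonged to Col15a1, Col6a5 and Col4a4. The peak over Col15a1 (47207522 to 47208178 on chromosome 4) and that over Col6a5 (105960439 to 105961235 on chromosome 9) covered all 300 bases, whereas the peak at Col4a4 covered the last 29. The dinucleotide CG, at which 5hmC is mostly found and which reads the same on both strands, occurred between 0 and 37 times in these windows, with a median of 12, against 13 in all windows. At least 1 CG was present in 95.4% of all windows. A day 20 peak overlapped 2 of the 19 collagen windows with 10 or more CG, against 2.85% of all such windows, and 1 of the 12 with fewer, against 4.92%. Sequences are from RefSeq (GRCm38.p6), 5′ to 3′ on the strand of the gene, with each CG in capitals. The first 3 are the windows under a day 20 peak, Col4a1 is the one richest in CG, and Col3a1 has none and lies in a gene without a peak.
Col15a1 (chr4:47207762-47208061, plus strand): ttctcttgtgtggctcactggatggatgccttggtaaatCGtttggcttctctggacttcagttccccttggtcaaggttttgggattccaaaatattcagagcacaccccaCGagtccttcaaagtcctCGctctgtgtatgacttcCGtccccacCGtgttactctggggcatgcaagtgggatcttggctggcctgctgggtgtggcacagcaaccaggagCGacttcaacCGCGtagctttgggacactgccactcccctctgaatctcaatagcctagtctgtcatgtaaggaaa
Col6a5 (chr9:105960594-105960893, minus strand): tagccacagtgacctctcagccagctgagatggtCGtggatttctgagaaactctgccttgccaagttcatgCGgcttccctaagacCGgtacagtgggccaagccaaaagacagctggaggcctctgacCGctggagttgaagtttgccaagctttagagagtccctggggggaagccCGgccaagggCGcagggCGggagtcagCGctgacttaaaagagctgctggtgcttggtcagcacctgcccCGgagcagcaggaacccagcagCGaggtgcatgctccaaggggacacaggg
Col4a4 (chr1:82586800-82587099, minus strand): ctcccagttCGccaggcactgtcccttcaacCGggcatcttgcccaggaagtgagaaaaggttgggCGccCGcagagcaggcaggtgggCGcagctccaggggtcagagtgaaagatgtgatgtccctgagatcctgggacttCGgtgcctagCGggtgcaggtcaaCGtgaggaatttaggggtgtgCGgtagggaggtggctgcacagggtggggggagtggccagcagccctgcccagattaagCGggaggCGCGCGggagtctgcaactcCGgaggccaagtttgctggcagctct
Col4a1 (chr8:11312777-11313076, minus strand): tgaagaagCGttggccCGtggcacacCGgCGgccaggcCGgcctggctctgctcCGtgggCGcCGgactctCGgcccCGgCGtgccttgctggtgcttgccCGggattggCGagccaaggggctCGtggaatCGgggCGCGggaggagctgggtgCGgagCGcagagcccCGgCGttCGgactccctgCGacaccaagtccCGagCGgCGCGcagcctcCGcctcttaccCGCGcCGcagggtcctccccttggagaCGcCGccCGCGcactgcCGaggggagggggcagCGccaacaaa
Col3a1 (chr1:45311288-45311587, plus strand): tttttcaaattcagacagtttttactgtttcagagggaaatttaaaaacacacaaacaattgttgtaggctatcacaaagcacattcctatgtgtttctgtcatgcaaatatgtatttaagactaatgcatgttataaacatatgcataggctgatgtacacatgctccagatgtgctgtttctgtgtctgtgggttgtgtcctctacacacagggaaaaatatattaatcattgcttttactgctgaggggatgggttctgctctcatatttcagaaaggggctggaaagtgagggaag
The window of Col15a1 held 8 CG, that of Col6a5 10 and that of Col4a4 14. The window of Col4a1 held 37, and 7.29% of all windows held as many or more. No day 20 peak overlapped it, and the nearest lay 358 bases upstream of the start. That peak, the first of Col4a2, began 379 bases downstream of the start of Col4a2. The window of Col3a1 held 0 CG, as did that of Col28a1. Col1a2, with 13 CG, had its nearest day 20 peak 692 bases from the start.

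Peak width also varied between the collagens. Collagen peaks had a median width of 641 bp (quartiles 458 and 882 bp), against 601 bp over all day 20 peaks of protein-coding genes, and 42 of 223 (18.8%) spanned at least 1 kb, against 13.8%. Among the 1860 protein-coding genes with 5 or more day 20 peaks, 20 were collagens of this list. The median peak of Col5a1 ranked 34 among the 1860 from the widest, and only 1.83% of those genes had a median as wide. That of Col5a2 ranked 1860, the narrowest of all of them. Col4a4, with a median of 388 bp, ranked 1833, and Col12a1, with 412 bp, ranked 1796, while Col4a1, with 894 bp, ranked 193. Col4a2, the partner of Col4a1, had a median of 758 bp and ranked 427. In this order the 2 ranked chains of type V thus stood far apart, as did type IV chains of different pairs. Col5a3 and the other type IV chains had fewer than 5 peaks and were not ranked. Of the collagen peaks, 4 lay at most 50 bases from the one before, 2 of them in Col5a1, at gaps of 5 and 12 bases. With peaks within 1 kb joined, the 223 became 210 and the 13 of Col5a1 became 10.

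**Figure D5:**
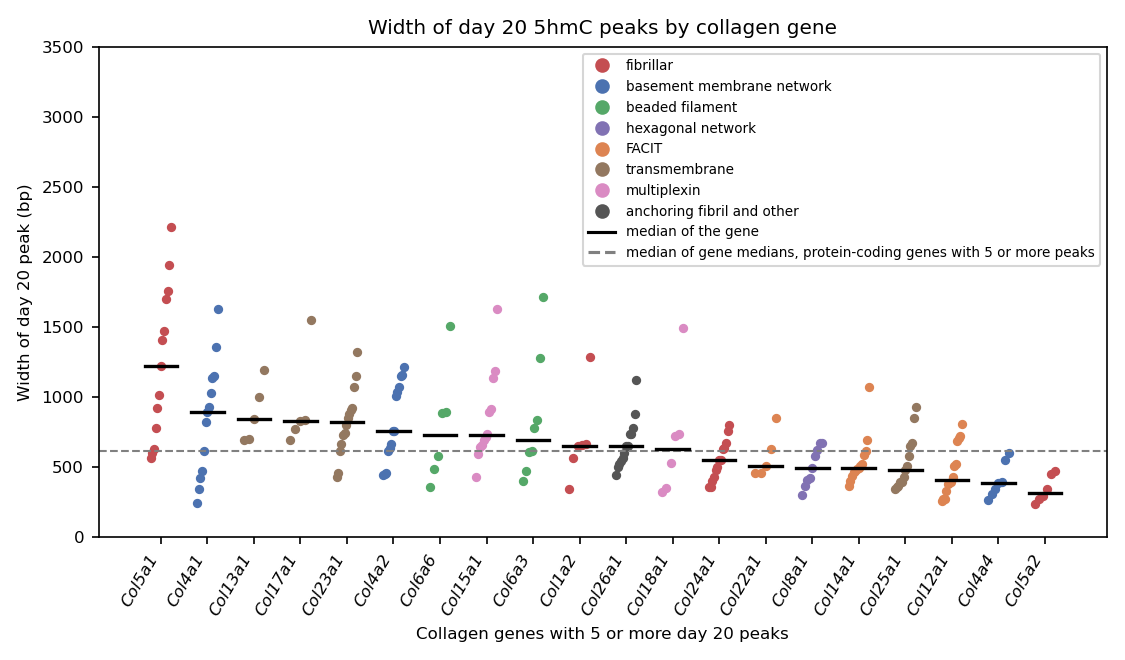
Width in bp of each day 20 peak (points) in the 20 collagens with 5 or more day 20 peaks, ordered by median width (black bars). The dashed line is 616 bp, the median of the gene medians over the 1860 protein-coding genes with 5 or more peaks, and Col5a1 stands at 1224 bp and Col5a2 at 316 bp.

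Set beside the 8 collagens of the cartilage fibril and of hypertrophic cartilage (types II, IX, X, XI and XXVII), the other collagens had a chondrocyte peak in 33 of 36 genes (91.7%, 78.2 to 97.1%) against 6 of 8 (75%, 40.9 to 92.9%), with intervals that overlap. By overlap with the gene body, whatever the symbol, the counts were 33 of 36 and 7 of 8 (87.5%), since a day 20 peak under another symbol lay over Col10a1 and its start window. By symbol the other collagens held 4.50 peaks per 100 kb of gene against 5.10. The cartilage collagens with the most were Col27a1, with 10, and Col9a1 and Col11a1, with 5 each. Their 25 peaks all had midpoints inside the gene. No cartilage collagen had a day 0 peak. Median gene length was 28.4 kb in the cartilage collagens and 126 kb in the others. Neither the shares nor the peaks per 100 kb are matched for length.

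Genes that fold, process and bind collagen were counted in the same way, with the background of 43.9%. Of 20 folding and modification genes, 13 had a day 20 peak (65.0%), most in P3h2, a prolyl 3-hydroxylase, with 9, and Colgalt2, a collagen galactosyltransferase, with 6. All peaks of these 2 genes carry older symbols, and by current symbols alone 10 of the 20 had one (50%), against the 39.7% of protein-coding genes counted that way. Of 13 processing and cross-linking genes, 12 had one (92.3%), most in the procollagen N-proteinases Adamts3, with 14, and Adamts2, with 12, and Adamts3 also had 1 day 0 peak. Of 10 receptor genes, 6 had one (60%), most in Itga11, a collagen-binding integrin subunit, with 13, and the collagen-activated kinase Ddr2, with 9. These 3 lists held 5.42, 5.41 and 5.55 peaks per 100 kb of gene, against 4.50 in the collagens outside the cartilage fibril. Their median gene lengths were 18.2, 57.9 and 62.8 kb, against 126 kb in those collagens. Over all protein-coding genes this density was 3.95 under 50 kb and 2.34 over 150 kb. Neither the densities nor the shares of the 3 lists are matched for length.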

How the data were processed

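The authors deposited 1 peak list for each stage, called on merged libraries at an enrichment of 10-fold, per the file headers. The deposited values used here are start and end positions in bases (unit: other) and a gene symbol per peak. No peak height or p-value is listed. The submitters' processing notes name FastQC, cutadapt, BWA, MACS 1.4.2, GRCm38 and mm10, and their roles are not stated. No label or header says whether the day 19 library entered the day 20 list. In the day 20 list 3 of 56698 peaks had no readable end and were left out.

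A peak was assigned by its deposited symbol, or by transcript accession or older symbol where the symbol was not current, using the RefSeq gene table of GRCm38.p6. Starts and strand came from the RefSeq start windows, which held 29 of the 36 collagens. Col1a1, Col4a3, Col5a2, Col12a1, Col14a1, Col22a1 and Col26a1 had none. Coordinates are as the lists give them, and peaks counted as overlapping from 1 base. No test was run, since each stage has 1 pooled list. The members and lists were chosen with earlier results of these data known. Named with all values were the 5 collagens with the most peaks (9 where tied), the first of each class, those with a day 0 peak or a peak at the start, the 3 longest without a peak, and those whose counts by symbol and by overlap differ by 3 or more. Col5a2 and the width ranks were picked with their values in view. The overlap step was tested on simulated data. Counts and figures were made in Python 3.11.15 (pandas 2.3.3, numpy 2.4.6, scipy 1.17.1, matplotlib 3.10.9).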

Additional observations from a re-analysis of the deposited data

How the results depend on the processing

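Of 111 alternative values over 24 results, 107 stayed within the 95% interval of the reported share or within 1.5 times the reported number. Of the 111, 32 were shares of structural classes of 2 to 7 genes. Their intervals are so wide that an alternative could hardly leave them. With peaks of at least 500 bases the anchoring fibril and other class fell from 100% to 66.7%, within its interval of 43.9 to 100%. The share of collagens with a day 20 peak was 91.7% by overlap with the gene body and with 5 kb added on both sides, 83.3% with peaks of at least 500 bases and 88.9% without peaks outside the gene. It was also 88.9% by current symbols alone, an alternative chosen after seeing the data. Relative to the mean number of peaks per gene over all 36 collagens, beaded filament chains stood at 0.673, the hexagonal network at 0.888 and transmembrane collagens at 1.49. Counted per 100 kb of gene, these became 1.17, 1.55 and 0.913, by construction from their gene lengths. The class of anchoring fibril and other collagens stood at 0.807 and, by current symbols alone, at 0.114, since the 13 peaks of Col26a1 carry its older symbol. The share of peaks inside the gene ranged from 89.3% to 91.0%, and that within 5 kb of a start from 10.9% to 13.4%. The day 0 peak of Col5a3 was shared under all 3 overlap rules, which had to be so because it lies wholly within the day 20 peak. Libraries could not be left out in turn, since each list is made from merged libraries. No paired analysis was possible because the lists hold no values per replicate. Read depth is unknown, so a gene without a peak may have 5hmC below the threshold of the list.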
